A study of Rattus norvegicus with 12 samples.

Results

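The genes described here encode the proteins that fill, dock and fuse synaptic vesicles: vesicular glutamate transporters, synapsins, vesicle membrane proteins, synaptotagmins, SNAREs and their regulators, active zone scaffolds, and the small GTPase Rab3 with its partners. They were taken by a pattern of gene symbols that uses no measured value, though the pattern was set with earlier results of these data known, and 95 of the 26214 gene names on the array matched, with 112 of its 30367 probes. The same symbol pattern also took 12 probes of Rab30 to Rab39 (10 genes), small GTPases of other membrane traffic, and 1 probe of Snap91, a clathrin assembly protein, so counts are also given without the former.

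RNA came from neuron-enriched cultures of the cerebellum of P1 Sprague-Dawley rats after 16 days in vitro (DIV). In each of 6 culture experiments the dissociated cells of pooled neonates from a single litter were divided among all groups of the study. Used here are the control culture, which received the solvent DMSO alone, and the culture that received acetamiprid (ACE) at 1 µM in DMSO from day 2 onwards. ACE is a neonicotinoid, an insecticide that acts on nicotinic acetylcholine receptors. All cultures were grown first with serum and later without it to hold back astrocytes, and they hold glia beside granule cells, Purkinje cells and other neurons. Each of the 12 cultures gave 1 single-colour array, and the control and ACE arrays that share a replicate number form a pair from the same litter, so control versus ACE (CvA) was compared within 6 pairs.

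When calcium enters a nerve terminal, the vesicle SNARE of the VAMP family zips together with the membrane SNAREs of the syntaxin and SNAP25 families and the vesicle fuses. Synaptotagmins sense the calcium, complexins hold and release the SNARE complex, Munc13 proteins (Unc13 genes) prepare it, and Bassoon, Piccolo and the RIM proteins keep vesicles and calcium channels together at the active zone. In the cerebellum these proteins serve the glutamate release of granule cells and the GABA release of Purkinje cells and interneurons. Other syntaxins, VAMPs and SNAPs fuse membranes in every cell, glia included.

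The arrays carry 1 to 3 probes of 60 bases per gene, and what a probe reports depends on which stretch of the transcript it holds. The probes of the paralogs Rab3a and Rab3b, vesicle GTPases, lie over the same part of the coding sequence. They are shown in full because the values of both are given below and the probes are so alike. Over 45 overlapping bases they share 37, printed in capitals, and this was the closest pair among 6198 pairs of probes of different genes (the only pair with 70% identity or more over at least 30 bases).
Rab3a: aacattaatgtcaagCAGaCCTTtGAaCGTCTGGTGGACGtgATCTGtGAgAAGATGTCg
Rab3b: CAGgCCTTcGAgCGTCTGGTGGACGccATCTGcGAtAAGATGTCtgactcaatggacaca
In the coordinates of the array files (build rn4) the Rab3a probe lies at chr16:19190472-19190531 on the minus strand and the Rab3b probe at chr5:130283528-130283587 on the plus strand. How much each transcript binds to the probe of the other was not tested.

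A further group is shown because the results below turn on them: the probe of Syt8, with the lowest p-value among all members, that of Syt3, the synaptotagmin with the lowest p-value among those higher in ACE, and the coding probe of Snap25, whose stop codon is in capitals.
Syt8: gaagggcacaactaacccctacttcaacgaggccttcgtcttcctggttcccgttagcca
Syt3: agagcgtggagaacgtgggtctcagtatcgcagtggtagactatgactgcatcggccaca
Snap25: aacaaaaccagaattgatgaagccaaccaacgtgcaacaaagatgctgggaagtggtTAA
They lie at chr1:202685739-202685798, chr1:94877199-94877349 and chr3:124893320-124893379 of rn4, all on the plus strand. The Syt3 probe covers more genome than its 60 bases and so spans a splice junction in that mapping.

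Of the 112 probes, 104 (89 genes) had a signal above the 20th percentile of their array on at least 7 arrays and were tested. Of these 104, 87 were well above background on all 12 arrays. The 8 others were not tested. They were the only probes of Slc17a7, Slc17a8, Syt13, Syt15, Syngr4 and Cplx4, and 1 each of the 2 probes of Unc13c and Rims2. Throughout, levels are log2 intensities after quantile normalization, a difference is ACE minus control in the mean of the pairs with its standard error (SE), and p-values are from limma with the replicate as a block.

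No member differed between ACE and control after Benjamini-Hochberg adjustment over all 23796 probes tested (0 of 104, beside 0% of all probes), and the lowest adjusted limma p of a member was 0.143. At an unadjusted limma p under 0.05, 21 of 104 member probes (20.2%) passed, beside 16.6% of all probes. They were unevenly divided: 15 were higher in ACE (14.4% of members, beside 6.9% of all probes) and 6 were lower (5.77% of members, beside 9.73% of all probes). By the exact signed-rank test, whose smallest p-value of 0.031 needs the same direction in all 6 pairs, 14 members passed (13.5%, beside 11.6%), 10 of them higher in ACE (beside 4.72% of all probes higher in all pairs) and 4 lower (beside 6.86%). A change of 1.5-fold or more was seen for 1 probe, that of Rab39a, or 0.962% of members, beside 1.72% of all probes. That count of members depended on the processing: it was 0 in the values the authors deposited and up to 5 when 1 replicate was left out.

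Regardless of any threshold, 70 of 104 members (67.3%) were higher in ACE, beside 47.8% of all probes. The median difference of the members was 0.04, beside -0.00499 over all probes, and the members ranged from -0.56 for Syt9 to 0.84 for Rab39a. These shares depend on how arrays are scaled. When each array was shifted to its 75th percentile in place of quantile normalization, 50 of 104 members (48.1%) were higher in ACE beside 34.8% of all probes, and the unadjusted calls divided into 9 higher and 8 lower. That was 16.3% of members called, beside 17.7% of all probes, so the members' excess in calls of both directions together was gone. By direction, the 9 of 104 called higher stood beside 3.48% of all probes, and the 8 of 104 called lower beside 14.2%. Of the calls over all probes, 19.7% were then higher in ACE, beside 41.5% with quantile normalization. In the values the authors deposited, 72 members (69.2%) were higher beside 53.3% of all probes, and the calls divided into 16 higher and 6 lower (beside 8.62% of all probes called higher and 8.13% called lower). Without the probes of Rab30 to Rab39, and with quantile normalization, 64 of 92 were higher (69.6%, beside 47.8% of all probes). Of these 92, 18 passed the unadjusted threshold (19.6%, beside 16.6%), 13 of them higher (14.1%, beside 6.89%).

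**Figure D1:**
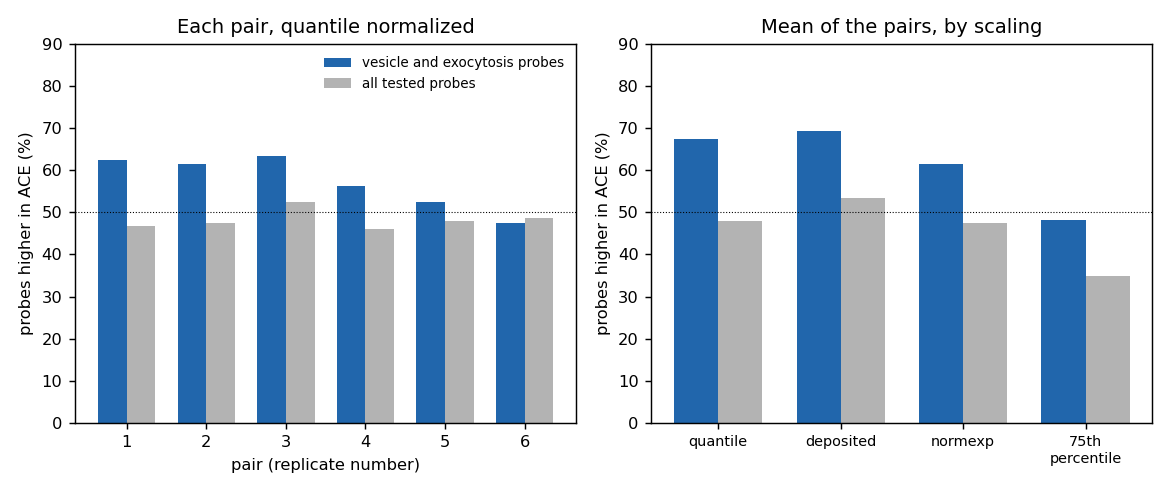
Share of probes higher in ACE (%, bars from 0) for the vesicle and exocytosis probes (blue) and all tested probes (grey), in each of the 6 pairs (left) and for the mean of the pairs under 4 ways of scaling the arrays (right). The blue bar is above the grey bar in pairs 1 to 5 and below it in pair 6 (47.6% and 48.6%), and under each of the 4 scalings it is above.

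The tilt differed from pair to pair. Members were higher in ACE for 65 of 104 probes in pair 1 (62.5%, beside 46.7% of all probes), 64 in pair 2 (61.5%, beside 47.4%) and 66 in pair 3 (63.5%, beside 52.4%). They were higher for 58 of 103 in pair 4 (56.3%, beside 46.1%), 54 of 103 in pair 5 (52.4%, beside 47.9%) and 49 of 103 in pair 6 (47.6%, beside 48.6%). The 3 pairs 4 to 6 were scanned in 1 batch, and over them alone 56 of 104 members were higher (53.8%, beside 46.8% of all probes), with a median difference of 0.02, beside -0.00949 over all probes.

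Like those of all probes, the levels of these genes varied more between culture experiments than between ACE and control. The median SD between the 6 cultures was 0.28 over the members and 0.29 over all probes, while the median size of a difference was 0.07 and 0.06. The difference was larger than the SD between cultures for 2 of 104 members (1.92%, beside 3.59% of all probes).

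**Figure D2:**
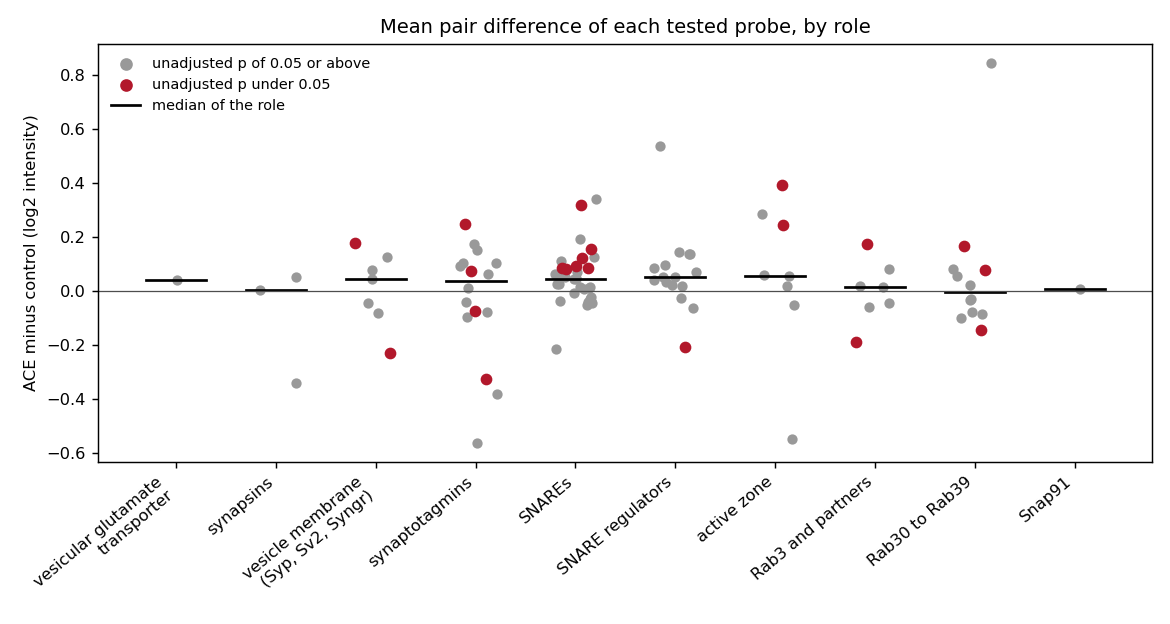
Difference between ACE and control (log2 intensity, mean of the pairs) of each of the 104 tested probes, grouped by role. Red points passed an unadjusted limma p under 0.05 and black lines are the role medians. The 7 red points among the SNAREs all lie above 0.

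SNAREs were the largest role, with 33 probes of 26 genes, and they held 7 of the 15 probes higher in ACE at the unadjusted threshold. All 7 were higher (21.2% of SNARE probes, beside 6.9% of all probes), 0 of the 33 were lower at that threshold (beside 9.73%), and 24 of 33 (72.7%, beside 47.8%) were higher regardless of the threshold. Under the shift to the 75th percentile 4 were higher and 0 lower, beside 3.48% and 14.2% of all probes, and under another background correction, normexp, 10 were higher and 1 lower, beside 7.37% and 10.7%. Among the 7 were both SNAREs known from nerve terminals (Stx1a and Vamp1) and ones used for fusion outside them (Snap23, Stx3, Vamp3 and Stx11).

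Stx1a encodes syntaxin 1A of the presynaptic membrane. Its level was 9.36 to 10.15 (median 9.86) in control and 9.53 to 10.32 (median 9.98) in ACE. The groups overlapped almost wholly, but the ACE array was the higher of its pair in 5 of 6 pairs, by 0.12 ± 0.04 (SE, unadjusted limma p of 0.0135, adjusted p of 0.205).

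Vamp1 encodes synaptobrevin 1, a vesicle SNARE of fast-firing neurons, and its level varied far more between the culture experiments than between ACE and control. Culture, slide and, in part, scan batch go together and cannot be told apart here. Its brighter probe ran from 11.67 to 13.37 (median 12.20) in control and from 11.70 to 13.48 (median 12.34) in ACE. In both groups replicate 1 was lowest and replicate 6 highest, and the SD between cultures was 0.68. Within the pairs it was higher in ACE by 0.09 ± 0.03 (SE, 5 of 6 pairs, unadjusted limma p of 0.0353, adjusted p of 0.267), and its second probe by 0.06 ± 0.04 (SE, unadjusted limma p of 0.138). Leaving out replicate 2, 4, 5 or 6, or taking the block as a random effect, ended the unadjusted call of the first.

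Of the probes that passed, those of Snap23, Stx3 and Vamp3 were higher in every pair. Snap23, the counterpart of Snap25 outside neurons, ran from 11.92 to 12.25 (median 12.15) in control and from 12.07 to 12.35 (median 12.21) in ACE. It was higher in 6 of 6 pairs, by 0.08 ± 0.02 (SE, unadjusted limma p of 0.0138, adjusted p of 0.206). Stx3, a syntaxin of polarized cells and of ribbon synapses, had 7.77 to 8.19 (median 7.98) in control and 7.86 to 8.33 (median 8.06) in ACE. Its ACE array was again the higher in 6 of 6 pairs, by 0.09 ± 0.02 (SE, unadjusted limma p of 0.00654, adjusted p of 0.176). For Vamp3 (cellubrevin), a VAMP of recycling endosomes, the control arrays held 15.77 to 16.30 (median 15.96) and the ACE arrays 15.84 to 16.32 (median 16.07). The 6 pairs were higher by 0.08 ± 0.03 (SE, unadjusted limma p of 0.0241, adjusted p of 0.238). The unadjusted calls of Stx3 and Vamp3 ended under the 75th percentile shift (0.05 for both), and that of Vamp3 ended without replicate 2, 5 or 6. Stx11, a syntaxin of immune cells, was higher in 4 of 6 pairs by 0.32 ± 0.12 (SE, unadjusted limma p of 0.0336). It is named after its values were seen, and leaving out replicate 1, 2, 5 or 6, or the shift (0.21), ended that call. Its pair differences were 0.43, 0.51, -0.09, -0.08, 0.70 and 0.42, and the mean of 10 microglia markers differed in the same pairs by 0.44, 0.03, -0.01, -0.07, -0.09 and 0.00375. The part of microglia in it was not tested.

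Snap25 and Vamp2, the SNAREs of most central synapses, did not pass the unadjusted threshold. The probe at the end of the Snap25 coding sequence ran from 7.56 to 9.42 (median 8.62) in control and from 8.06 to 9.59 (median 8.91) in ACE. The difference was 0.34 ± 0.19 (SE, 5 of 6 pairs higher, unadjusted limma p of 0.114), of which pair 6 alone gave 1.25. Without replicate 6 it was 0.16, and without replicate 4 it was 0.47 with an unadjusted limma p of 0.0452. The other Snap25 probe, further downstream at chr3:124893776-124893835, was lower by 0.23 in pair 6 and gave 0.11 ± 0.10 (SE, 4 of 6 pairs higher). The 2 probes thus went opposite ways in the pair that decides the first value. Vamp2, with 11.43 to 11.83 in control and 11.45 to 11.84 in ACE, gave 0.01 ± 0.02 (SE).

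Among the other SNARE probes the differences ran from -0.21 for Stx19 to 0.19 for a Stx16 probe. Stx2 and Vamp4 each had 2 probes with opposite signs, none past the threshold (-0.03 and 0.05 for Stx2, -0.02 and 0.03 for Vamp4). Snap47 was higher in 6 of 6 pairs by only 0.03.

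**Figure D3:**
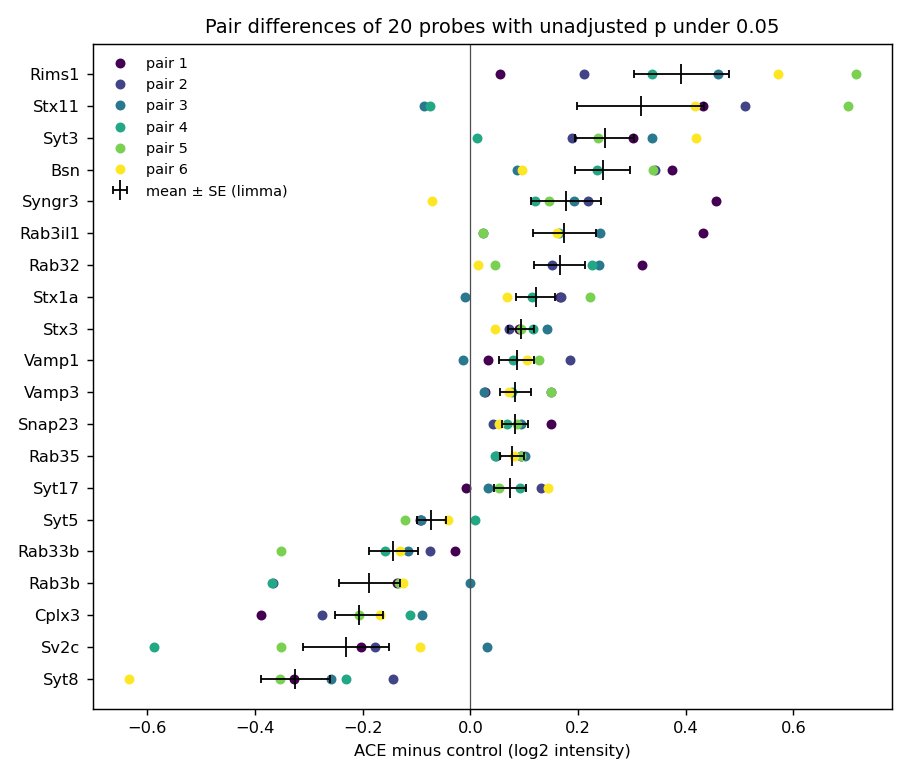
ACE minus control (log2 intensity) in each of the 6 pairs (coloured points) with the mean and SE (black) for 20 of the 21 probes that passed an unadjusted limma p under 0.05. Bsn, Syt3, Rims1, Rab3il1, Rab32, Stx3, Vamp3, Snap23 and Rab35 lie above 0 in every pair, and Syt8, Cplx3, Rab3b and Rab33b lie below 0 in every pair.

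Of 16 synaptotagmin probes tested (14 genes), 9 were higher in ACE (56.2%, beside 47.8% of all probes) and 7 lower, and 2 passed the unadjusted threshold in each direction (12.5% each, beside 6.9% of all probes higher and 9.73% lower). With normexp 0 were called higher and 2 lower, and with the 75th percentile shift 1 and 2, with 6 of 16 higher (beside 34.8% of all probes). Syt8, a family member found largely outside the brain, had the lowest p-value of all members. Its level was 6.70 to 8.10 (median 6.95) in control and 6.13 to 7.77 (median 6.68) in ACE. The groups overlapped, with replicate 1 the highest in both, but every ACE array was below the control array of its pair. The difference was -0.33 ± 0.06 (SE, 6 of 6 pairs lower, unadjusted limma p of 0.00178, adjusted p of 0.143), a ratio of 0.798. It kept its unadjusted call under each alternative with the replicate block that was run, between -0.40 and -0.23.

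Syt3, a synaptotagmin with high calcium affinity, had 3.92 to 4.56 (median 4.29) in control and 4.24 to 4.90 (median 4.41) in ACE. It was higher in 6 of 6 pairs by 0.25 ± 0.05 (SE, unadjusted limma p of 0.00313, adjusted p of 0.150). Its signal was dim: 3 of 6 control and 5 of 6 ACE arrays were well above background, and with normexp the difference was 0.05 (unadjusted limma p of 0.185), with the 75th percentile shift 0.12. Syt5, a calcium sensor of synaptic and secretory vesicles, was lower in 5 of 6 pairs (-0.07 ± 0.03, SE, unadjusted limma p of 0.0319), and Syt17, which lies on Golgi and endosomal membranes, was higher by 0.07 ± 0.03 (SE, 5 of 6 pairs, unadjusted limma p of 0.0430). Both are named after their values were seen, each lost its call in several fits without 1 replicate, and Syt17 also lost it with normexp, with the 75th percentile shift and without the filter.

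Syt1 and Syt2, the calcium sensors of fast release, did not pass. Syt1 ran from 4.25 to 6.49 (median 5.29) in control and from 4.49 to 6.58 (median 5.26) in ACE. The SD between cultures of 0.78 was several times the difference of 0.15 ± 0.11 (SE, 5 of 6 pairs higher). Syt2 gave 0.10 ± 0.07 (SE, 5 of 6 pairs higher), and -0.000579 over the 3 pairs of the shared scan batch. The lowest difference of any member, -0.56 ± 0.34 (SE) for Syt9, came from pairs 4 and 6 (-1.56 and -1.97), while the other 4 pairs lay between -0.11 and 0.35. Without replicate 6 it was -0.28.

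Among active zone genes 6 of 8 probes were higher in ACE (beside 47.8% of all probes), and 4 of 8 were so under the 75th percentile shift (beside 34.8%). The 2 that passed the unadjusted threshold (25%, beside 16.6%) were those of Bsn and Rims1, both higher. Under the shift 2 were called higher and 1 lower. Bsn encodes Bassoon, a giant scaffold of the active zone. Its probe at chr8:113364208-113364267 (minus strand) read 8.28 to 9.79 (median 9.39) in control and 8.66 to 10.03 (median 9.60) in ACE. All 6 pairs were higher in ACE, with replicate 1 lowest in both groups, by 0.25 ± 0.05 (SE, unadjusted limma p of 0.00228, adjusted p of 0.145), a ratio of 1.19. The second Bsn probe, at chr8:113367780-113367839, read 5.59 to 6.48 in control and 5.48 to 6.30 in ACE and gave -0.05 ± 0.07 (SE, 3 of 6 pairs higher). Whether the 2 probes report different transcripts was not tested.

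Rims1 encodes RIM1, which ties vesicles to calcium channels. It read 2.85 to 4.32 (median 3.17) in control and 3.40 to 4.38 (median 3.70) in ACE, higher in 6 of 6 pairs by 0.39 ± 0.09 (SE, unadjusted limma p of 0.00375, adjusted p of 0.156). The signal was well above background on 1 control and 2 ACE arrays only, and with normexp the difference was 0.01 (unadjusted limma p of 0.568). Rims2 (0.06), Rims3 (0.02) and Rims4 (0.28 ± 0.36, SE) did not pass.

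Pclo encodes Piccolo, the partner scaffold of Bassoon. Its 2 probes gave 0.06 ± 0.24 and -0.55 ± 0.46 (SE). The latter rests on replicate 5, where the control array read 8.68 and the ACE array 3.06 lower, and was -0.04 without it.

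**Figure D4:**
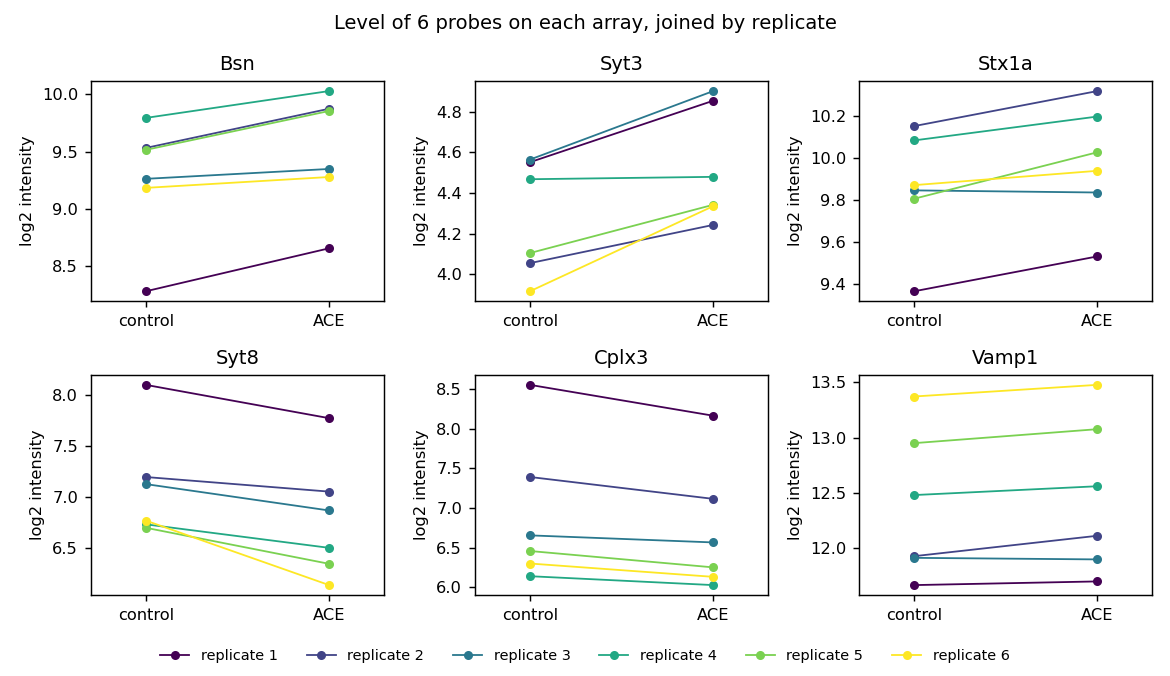
Level (log2 intensity) of 6 probes on the 12 arrays, with a line joining the control and the ACE array of each replicate. The axes differ between panels and do not start at 0. Lines run upwards in 6 of 6 pairs for Bsn and Syt3 and downwards in 6 of 6 for Syt8 and Cplx3, while the gaps between replicates are wider than the slopes, most of all for Cplx3 and Vamp1.

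Among SNARE regulators 13 of 16 probes (81.2%, beside 47.8% of all probes) were higher in ACE, and 7 of 16 were so under the 75th percentile shift (beside 34.8%). The single one to pass the unadjusted threshold (6.25%, beside 16.6%) was lower. This was Cplx3, a complexin best known from ribbon synapses of the retina. It read 6.14 to 8.55 (median 6.56) in control and 6.03 to 8.16 (median 6.41) in ACE. Replicate 1 was highest in both groups, and the SD between cultures was 0.86. The ACE array was the lower in 6 of 6 pairs, with a mean difference of -0.21 ± 0.04 (SE, unadjusted limma p of 0.00302, adjusted p of 0.150). With the block as a random effect the call was lost.

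The complexins of central synapses did not pass. Cplx1 gave 0.09 ± 0.06 and 0.09 ± 0.07 (SE) at its 2 probes, and Cplx2 gave 0.02 ± 0.05 (SE). Of the Munc13 genes, which prime vesicles, Unc13a gave -0.06 ± 0.06 (SE, 2 of 6 pairs higher). Unc13c, the form of granule cells, was dim: its tested probe was not well above background on any control array (0 of 6) and was so on 3 ACE arrays, so that no fold is given. Stxbp5l (tomosyn-2), an inhibitor of SNARE assembly, gave 0.54 ± 0.49 (SE) at a signal above background on 6 of 12 arrays, and 0.13 without replicate 4. It is named after its values were seen.

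Vesicle membrane proteins showed no common direction, with 4 of 7 probes higher (57.1%, beside 47.8% of all probes). Syp, encoding synaptophysin, read 8.52 to 9.57 (median 8.81) in control and 8.59 to 9.57 (median 9.02) in ACE. It was higher in 5 of 6 pairs by 0.13 ± 0.07 (SE, unadjusted limma p of 0.136). The pair differences were 0.41, 0.29 and 0.13 in pairs 1 to 3, and 0.0047, 0.04 and -0.12 in pairs 4 to 6. Sv2a, the vesicle glycoprotein that binds levetiracetam, gave -0.04 ± 0.04 (SE, 5 of 6 pairs lower), and Sv2b, well above background on 1 control and 4 ACE arrays, 0.08 ± 0.26 (SE). Syngr3 (synaptogyrin 3) was higher by 0.18 ± 0.06 (SE, 5 of 6 pairs, unadjusted limma p of 0.0308), and Sv2c, the form of basal ganglia and some brainstem neurons, was lower in 5 of 6 pairs (-0.23 ± 0.08, SE, unadjusted limma p of 0.0257). Both are named after their values were seen. Syngr3 lost its call without replicate 1, 2, 3 or 5 and Sv2c without replicate 1 or 5. With normexp the Sv2c difference was -0.09 (unadjusted limma p of 0.109).

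The synapsins, which tether the reserve pool of vesicles, gave 0.05 ± 0.07 for Syn1 and 0.00427 ± 0.036 for Syn2 (SE), each higher in 3 of 6 pairs. Syn1 read 6.74 to 7.27 in control and 6.75 to 7.22 in ACE, and Syn2 8.21 to 9.05 and 8.09 to 9.16. Syn3 gave -0.34 (unadjusted limma p of 0.130). The vesicular glutamate transporter Slc17a6 (VGLUT2) read 5.35 to 6.55 in control and 5.33 to 6.66 in ACE, a difference of 0.04 ± 0.06 (SE, 3 of 6 pairs higher). Slc17a7 (VGLUT1), the transporter of mature granule cell terminals, was not well above background on any control array (0 of 6) and was so on 2 of 6 ACE arrays. Its measured means were 2.82 in control and 3.31 in ACE, and no fold is given at that signal. Slc17a8 (VGLUT3) was well above background on 1 array of each group.

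Rab3 GTPases ride on vesicles and bind the RIM proteins. Rab3b read 12.96 to 13.96 (median 13.11) in control and 12.78 to 13.83 (median 12.97) in ACE. Replicate 1 stood above the rest in both groups. It was lower in 6 of 6 pairs (-0.19 ± 0.06, SE, unadjusted limma p of 0.0144, adjusted p of 0.207), although pair 3 differed by only -0.00134. Rab3a, the main form at synapses, read 8.50 to 9.07 (median 8.72) in control and 8.54 to 9.04 (median 8.62) in ACE and gave -0.04 ± 0.04 (SE, 5 of 6 pairs lower, unadjusted limma p of 0.342). The difference between the 2 paralogs was not tested. Rab3il1, an exchange factor that activates Rab GTPases, was higher in 6 of 6 pairs by 0.17 ± 0.06 (SE, unadjusted limma p of 0.0224, adjusted p of 0.233), from a control range of 7.35 to 7.61 to an ACE range of 7.37 to 8.02. It lost that call without replicate 3 and under the 75th percentile shift, where it was 0.11. Rab3c, Rab3d, Rab3gap2 and Rab3ip lay between -0.06 and 0.08.

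Of the 12 probes of Rab30 to Rab39, 6 were higher (50%, beside 47.8% of all probes) and 6 lower. The unadjusted threshold was passed by 3 (25%, beside 16.6%), 2 of them higher. Rab32, a Rab of lysosome-related organelles and mitochondria, was higher in 6 of 6 pairs at 1 of its 2 probes (0.17 ± 0.05, SE, unadjusted limma p of 0.0111, adjusted p of 0.196) and the other gave 0.08. The former was 0.10 under the 75th percentile shift, where its call ended. Rab35, of endocytic recycling, was higher in 6 of 6 pairs by 0.08 ± 0.02 (SE, unadjusted limma p of 0.0117). Rab33b, a Golgi Rab, was lower in 6 of 6 pairs at 1 probe (-0.14 ± 0.05, SE, unadjusted limma p of 0.0172) and gave 0.05 at the other. For Rab39a, linked to phagosomes, 1 control array was missing as an outlier spot, so its 0.84 ± 0.41 (SE) rests on 5 pairs, 4 of them higher. Pair 4 alone gave 2.61. The difference was 0.40 without replicate 4, 0.13 with normexp and -0.13 in the deposited values.

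The remaining genes of the vesicle cycle come from a list of 87 genes of endocytosis, vesicle acidification, loading and SNARE recycling, none of them taken by the symbol pattern. Of these, 81 were on the array and 79 were tested with 106 probes. At the unadjusted threshold 22 probes passed (20.8%, beside 16.6% of all probes). Of these, 13 were higher (12.3%, beside 6.9%) and 9 lower (8.49%, beside 9.73%). Regardless of the threshold 64 of 106 were higher (60.4%, beside 47.8%), and the median difference was 0.02, beside -0.00499 over all probes. With the 75th percentile shift 6 were called higher and 11 lower (16.0% called, beside 17.7% of all probes, of whose calls 19.7% were higher). None passed after adjustment (0 of 106), and 14 passed the exact signed-rank test (13.2%, beside 11.6% of all probes).

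Among those higher in 6 of 6 pairs were Ap2m1 (0.12 ± 0.03, SE), a subunit of the clathrin adaptor, and Atp6v0a1 (0.12 ± 0.03, SE), a subunit of the vesicular proton pump. Dnm1, the dynamin of synaptic endocytosis, was higher in 5 of 6 pairs by 0.20 ± 0.07 (SE). Dnm2, the dynamin of all cells, was higher in 6 of 6 pairs by 0.16 ± 0.04 (SE) at 1 probe and gave -0.04 at the other. Napb, the neuronal SNAP that recycles SNARE complexes, was higher in 6 of 6 pairs by 0.65 ± 0.22 (SE), whereas its paralog Napa was lower in 5 of 6 (-0.11 ± 0.04, SE). Lower in 6 of 6 pairs were Slc18a3, the vesicular acetylcholine transporter (-0.18 ± 0.04, SE), and Sytl1, a synaptotagmin-like protein (-0.17 ± 0.03, SE), with unadjusted limma p-values of 0.00264 and 0.00186. For Otof, the calcium sensor of hair cells, and the adhesion protein Nrxn3, 1 of 3 probes each was lower in 6 of 6 pairs (-0.15 and -0.16), while the other 2 gave 0.02 and -0.10 for Otof and 0.09 and 0.07 for Nrxn3. These genes were named after their values were seen.

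Bulk RNA cannot tell fewer cells of a type from less RNA per cell, so markers of the cell types were read beside the members. All 13 neuron marker genes tested (Tubb3, Map2, Uchl1 and others) were well above background on all arrays. Their mean level was 10.37 to 10.83 in control and 10.47 to 10.81 in ACE, and by pair it differed by 0.06, 0.10, 0.10, -0.02, -0.02 and -0.04. The 10 granule cell markers differed by 0.25, 0.13, -0.01, -0.07, -0.15 and -0.02. Syp, the downstream probe of Snap25 and 1 probe of Cplx1 had their most positive differences in pairs 1 and 2 and a negative one in pair 6. Over the 3 pairs of the shared scan batch they gave -0.03 for Syp, -0.09 for that Snap25 probe and -0.02 at both Cplx1 probes, and Bsn gave 0.22 and Stx1a 0.13, 2 probes that had passed the unadjusted threshold over all 6 pairs, these 3 included. The part of neuron content in these values was not tested.

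Of the other cell types, the mean of 10 astrocyte markers differed by -0.05 (lower in 5 of 6 pairs), and that of 10 microglia markers by 0.05, with 0.44 in pair 1. That of 10 oligodendrocyte markers differed by 0.01 and that of 7 inhibitory neuron markers by 0.07. The mean of 8 Purkinje cell markers differed by -0.04, with -0.25 in pair 6 and between -0.05 and 0.02 in the other pairs. The mean of 7 fibroblast markers differed by 0.04, with 0.51 in pair 4 and -0.25 in pair 6, and was higher in 2 of 6 pairs. Skeletal muscle markers differed most. The mean of 13 such genes was 6.90 to 11.12 in control and 6.70 to 9.79 in ACE, with pair differences of -0.79, -3.92, -0.33, 0.02, -0.08 and -1.92, and 8 of the 13 were well above background on all arrays. The part of these in the members' differences was not tested. Control arrays were at place 1 and ACE arrays at place 3 of every slide, so place and exposure cannot be told apart.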

How the data were processed

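Per the file headers, the authors read single-dye intensities from the scans by Feature Extraction of Agilent (release 11.0.1.1 for replicate 1, release 11.5.1.1 otherwise), with background and spatial trend removed and no scaling between arrays. They also deposited log2 values, quantile normalized and centred on each probe's median, used as an alternative (correlation with the values here of 0.997 to 0.999 per array). Here control spots were dropped, outlier spots set to missing, log2 intensities quantile normalized and spots of a probe averaged. Probes above the 20th percentile on at least 7 of 12 arrays with at least 4 pairs were tested with limma 3.58.1 (R 4.3.3, with data.table at version 1.17.8) with the replicate as a block, and by the exact signed-rank test, two-sided. The fit was tested on simulated data. Figures used matplotlib 3.10.9. The 75th percentile of the signal ranged from 1803 to 4384 intensity units, and the number of arrays limits the precision.

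The numbers pair the samples: control and ACE arrays came from the same litter, and their deviations correlated at 0.449 to 0.912 within a number, against -0.439 to 0.390 otherwise. The 4 scan batches and 6 slides held whole pairs, so these correlations cannot tell a shared litter from a shared slide or batch. Named singly were 24 genes of the release machinery (of which some are not reported here), members with an unadjusted p under 0.05 and the same direction in all pairs (up to 10 each way), and those with 1.5-fold change; others are named as chosen after seeing values, or where probes of a gene disagree. The symbol pattern and the lists were chosen with earlier results of these data known. Gene names are those of the files. The 2 arrays of replicate 3 carry a newer annotation, in which 3 more probes have member names (Syt14, Stx11, Vamp2); none of the 3 passed the filter. The alternatives were normexp (offset 50), the 75th percentile shift, the deposited values, no filter, a stricter filter, other treatment of the block, averaging per gene and leaving out each replicate. The files' build is rn4, and no annotation of that build was used here.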

Additional observations from a re-analysis of the deposited data

Results flagged for a closer look

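Dixon's criterion, which chance meets in about 1 in 20 groups, was met by 3 of 95 groups of 6 arrays among the named probes, each time in replicate 1. The control array of replicate 1 read 2.73 at a probe of Pclo, where the other 5 control arrays read 4.93 to 5.90. The ACE array of replicate 1 read 13.8 at Rab3b, where the others read 12.8 to 13.0, and its control array was also the highest of its group. The control array of replicate 1 read 8.10 at Syt8, where the others read 6.70 to 7.19, and its ACE array was likewise the highest. The lower values of Syt8 and Rab3b in ACE do not rest on this replicate: without it their differences were -0.32 and -0.20.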

How the results depend on the processing

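Under each alternative run, 0 members passed the adjusted limma threshold (the lowest adjusted p of a member was 0.0870). With the replicate block, 15 to 24 passed the unadjusted threshold, beside 21. That was 14.4% to 23.1% of members, while the share of all probes ran from 11.8% to 18.6%. Without the replicate block, which ignores the pairing of litters, 0 members and 0 probes of the other vesicle genes passed the unadjusted threshold (0.340% of all probes). With the block as a random effect 24 (23.1%) and 22 (20.8%) did, beside 16.8% of all probes. The count in the same direction in every pair was 8 with the 75th percentile shift, and 15 to 25 (beside 14) when 1 replicate was left out, where 5 pairs are fewer to satisfy. The count with 1.5-fold change was 0 with normexp, with the deposited values, with probes well above background on 12 arrays and without Rab30 to Rab39, was 3 with the 75th percentile shift, and was 1 to 5 without 1 replicate. Among all probes well above background on 12 arrays 0.357% changed 1.5-fold. Under the other alternatives the share of all probes is not given for these counts of direction and fold. Members and all probes cannot be compared there. The median member difference was -0.00293 with the 75th percentile shift, beside -0.0329 over all probes. It was 0.0235 with normexp (beside -0.00425) and 0.0254 with probes well above background on 12 arrays (beside -0.00407). Averaging per gene gave 0.0254 (beside -0.00631), the deposited values 0.05 (beside 0.00705), and leaving out 1 replicate 0.03 to 0.04. Leaving out 1 replicate gave 15 to 22 unadjusted calls among the members and 12 (without replicate 2) to 24 among the other vesicle genes, 13 without replicate 5, while the share of all probes called ran from 11.8% (without replicate 2) to 17.5% (without replicate 3). Of the 21 member calls, the deposited values kept 21, normexp 17 (lost: Rims1, Syt3, Syt17, Sv2c) and the shift 15 (lost: Rab3il1, Syt17, Rab32, Stx3, Vamp3, Stx11), and 0 calls changed sign under the alternatives that test single probes. Causes were not tested. Dim probes (Rims1, Syt3, Unc13c, Slc17a7) are limited by signal over background.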
